A study of Homo sapiens with 8 samples.

Results

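ATF4 target genes and unfolded protein response genes were followed in human MCF10A cells after knockdown of the Hippo kinases LATS1 and LATS2, of p53, or of all 3. The 45 genes were chosen by symbol as known members of these pathways, and all 45 were found among the 29991 entries of the deposited expression table. They form 2 arms. The ATF4 arm holds 26 genes, namely 9 regulators, 9 enzymes of amino acid and one-carbon metabolism, and 8 tRNA synthetases. The ER arm holds 19 genes, namely 4 sensors and signal carriers of endoplasmic reticulum (ER) stress, 12 chaperones and folding factors, and 3 genes of ER-associated degradation.

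ATF4 is a transcription factor whose protein is made mainly when phosphorylation of the initiation factor eIF2 slows general translation, as happens in amino acid shortage or ER stress, so that its messenger RNA need not follow its activity. It induces genes of amino acid supply and of tRNA charging, among others. In the unfolded protein response, the ER sensors PERK, IRE1 and ATF6 answer misfolded protein in the ER. PERK acts through eIF2 and ATF4, whereas IRE1, through XBP1, and ATF6 induce chaperones and degradation factors.

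MCF10A is an immortalised, non-tumorigenic line of human breast epithelium with basal features. All cells had been transfected with siRNA. The 4 groups received a control siRNA (siControl), siRNA against LATS1 and LATS2 (labelled siLATS1/2 and called siLATS here), siRNA against p53 (sip53), or siRNA against all of these (labelled siLATS1/2/p53 and called siLATS_p53). Each group had 2 polyadenylated RNA libraries, numbered 1 and 2 after the independent batch of cells they came from, so that each batch held 1 library of every group. The sources used here do not give the siRNA doses or the time from transfection to harvest. No other cell line was studied, and the transcript levels say nothing about protein.

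The deposited values are log2 levels with a floor of 5. The test covered the 12315 entries that exceeded the floor in 2 or more libraries, all 45 genes among them. Depth is an estimate made from the step between low values, 11.29 to 37.04 M reads, with siControl_1 and siLATS_p53_1 the shallowest. Differences below are on the log2 scale with the standard error (SE) of limma, and a gene rose or fell where its Benjamini-Hochberg adjusted p over all tested entries was under 0.05. LATS1 fell by 1.58 in siLATS and LATS2 fell by 1.39. The p53 targets CDKN1A and MDM2 fell by 2.62 and 1.18 in sip53. All 8 basal epithelial markers were above the floor in all libraries, and 5 of 7 fibroblast markers and 6 of 8 blood and endothelial markers were at the floor in all 8. In bulk libraries, a change in which cells make up a culture and a change in RNA per cell cannot be told apart.

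The regulatory sequences of the arms are shown because each arm is defined by its transcription factors. RefSeq promoters (GRCh38.p14, from 250 bases before to 50 bases after the annotated start) were found for 39 of the 45 genes. Both strands were searched for an ATF4 element spelled TGATGNAA, the ER stress element, which is CCAAT and CCACG with 9 bases of any kind between them, and an XBP1 element spelled TGACGTGG, whose last 5 letters are the reverse complement of CCACG. The ATF4 element lay in 6 of 20 matched promoters of the ATF4 arm (ATF3, CHAC1, ASNS, AARS, MARS and NARS) and in 1 of 19 of the ER arm (HERPUD1). Over all 27305 promoters, 3.67% held it. Promoters of 4 of these genes follow, read along the gene's own strand with the element, or its reverse complement, in capitals.
ATF3: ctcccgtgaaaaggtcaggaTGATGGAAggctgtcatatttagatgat
ASNS: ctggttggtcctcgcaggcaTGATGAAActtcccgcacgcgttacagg
AARS: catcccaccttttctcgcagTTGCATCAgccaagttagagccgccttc
MARS: aagcgggaggccggttccggTTGCATCA
The ATF3 stretch is at chr1:212565196-212565243 on the plus strand and the ASNS stretch at chr7:97872449-97872496 on the minus strand. The AARS stretch is at chr16:70289666-70289713 on the minus strand and the MARS stretch at chr12:57488044-57488071 on the plus strand. The element begins at position -191 from the annotated start in ATF3, at -68 in ASNS, at -187 in AARS and at -4 in MARS.

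The ER stress element, which ATF6 and XBP1 bind together with NF-Y, had the opposite spread over the arms. It lay in 6 of 19 promoters of the ER arm (XBP1, HSPA5, HSP90B1, CALR, CANX and CRELD2), at 2 places in HSP90B1, and in 0 of 20 of the ATF4 arm. Only 22 of the 27305 promoters (0.0806%) held it. The XBP1 element lay in HYOU1 alone among the 39, against 0.795% of all promoters. A match is a description of the letters and says nothing of binding in these cells. The genes were chosen as known members of these pathways, so the excess over all promoters and the split by arm are no independent result.
HSPA5: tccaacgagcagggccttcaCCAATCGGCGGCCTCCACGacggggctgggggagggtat
HSP90B1: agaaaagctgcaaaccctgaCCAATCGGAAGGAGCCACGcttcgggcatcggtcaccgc
CALR: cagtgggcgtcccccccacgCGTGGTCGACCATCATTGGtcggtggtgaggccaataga
CRELD2: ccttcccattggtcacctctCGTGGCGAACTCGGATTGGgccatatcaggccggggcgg
These stretches are at chr9:125241371-125241429 (minus strand), chr12:103930196-103930254, chr19:12938364-12938422 and chr22:49918534-49918592 (plus strand). The matches in CALR and CRELD2 are on the strand opposite to the gene.

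Across the treatments, the changes that passed the test without a term for the batch of cells were few and lay in the ATF4 arm. With batch as a block, ER arm genes were called too, among them EIF2AK3 in siLATS, EDEM1 in sip53, and CALR, CRELD2, SDF2L1 and EDEM1 in siLATS_p53. In siLATS against siControl, ATF3 rose while CEBPB and TRIB3 fell (1 of 45 up, against 2.81% of all entries, and 2 down, against 4.89%; 7.7% in all). In sip53 against siControl, the methionyl-tRNA synthetase gene MARS rose (1 of 45 up, against 1.76% of all entries, and 0 down, against 2.1%; 3.86% in all). In siLATS_p53 against siControl, ATF3, PPP1R15A, PSPH, AARS and MARS rose and NARS and TRIB3 fell (5 of 45 up, against 9.07% of all entries, and 2 down, against 5.48%; 14.6% in all). These counts of 3, 1 and 7 of 45 are near the shares of all entries and mark nothing out about the 45 genes as a set. The ER arm had 0 of 19 called in each of these comparisons, and the difference between the arms was not tested. These 3 comparisons share the siControl libraries.

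The remaining comparisons placed 1 knockdown on top of the other. Adding p53 siRNA to LATS1/2 siRNA (siLATS_p53 against siLATS) raised PSPH, SHMT2, AARS and MARS (4 of 45 up, against 11.3% of all entries, and 0 down, against 3.22%; 14.5% in all). In that comparison the median of all entries was 0.15, and after rescaling by medians of ratios, which sets it to 0.00, SHMT2 was not called (0.20, adjusted p = 0.149) and NARS was lower (-0.31, adjusted p = 0.0418). Adding LATS1/2 siRNA to p53 siRNA (siLATS_p53 against sip53) raised ATF3 and PPP1R15A (2 of 45 up, against 2.54%, and 0 down, against 1.12%; 3.66% in all). The interaction, which asks whether the effect of p53 siRNA differed with LATS1/2 siRNA present, called 0 of the 45 genes and 0% of all entries with limma. At an unadjusted p under 0.05 it held 1 of the 45 (ASNS) and 807 of all entries.

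**Figure D1:**
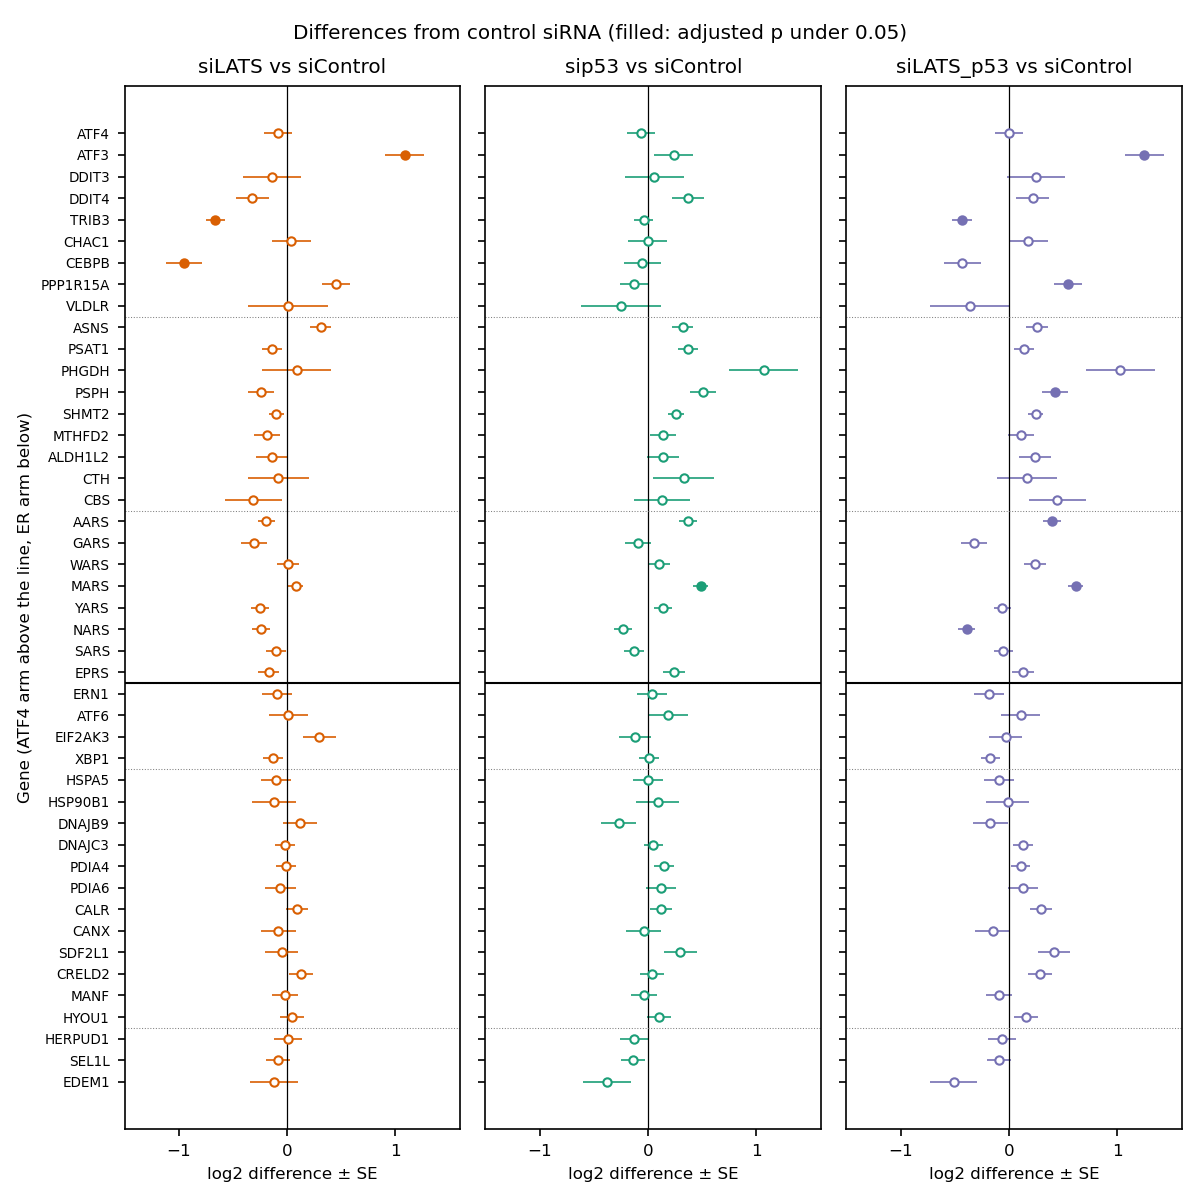
Log2 difference from siControl (x axis, ± SE) of each of the 45 genes (y axis) in siLATS, sip53 and siLATS_p53, 2 libraries per group; filled points have an adjusted p under 0.05. The filled points, 3, 1 and 7 in the panels from left to right, lie above the line that parts the ATF4 arm from the ER arm.

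The batch of cells moved with many of these genes, and fitting it as a block gave many more calls. With the block, 11 of 45 genes were called in siLATS against siControl (32% of all entries), 11 in sip53 (26%) and 19 in siLATS_p53 (39.2%). The counts were 21 in siLATS_p53 against siLATS (43.5%), 6 against sip53 (22.1%) and 1 in the interaction (2.03%). All 17 calls made without the block were also made with it. The number of calls also fell with fewer data, over all entries as well as for these genes. Nearly all of the 17 calls ended when 1 library or another was left out, and calls over all entries fell then too in most comparisons. Without siControl_1 and siLATS_p53_1 together, calls ended for the 45 genes and over all entries alike. Such fits leave 1 library in a group. No difference changed sign under any alternative tried for these 17.

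Among the regulators, ATF4 itself was steady at the RNA level. It was at 12.10 and 12.13 in siControl, 12.09 and 11.99 in siLATS, 12.19 and 11.92 in sip53, and 12.28 and 11.95 in siLATS_p53. The groups overlapped. The difference of siLATS_p53 from siControl was 0.00 on this scale with a 95% interval from -0.31 to 0.31, and from -0.18 to 0.18 with the block. Changes inside these intervals are not excluded with 2 libraries a group.

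ATF3, a stress-induced transcription factor downstream of ATF4 that also answers many other signals, had the largest called rise among the 45. It was at 7.20 and 7.28 in siControl, 8.55 and 8.11 in siLATS, 7.60 and 7.36 in sip53, and 8.39 and 8.60 in siLATS_p53. Every library with LATS1/2 siRNA lay above every library without it. The rise was 1.09 ± 0.18 in siLATS (2.13-fold, adjusted p = 0.0182), with 1.35 in batch 1 and 0.82 in batch 2. It was 1.25 ± 0.18 in siLATS_p53 against siControl (2.39-fold, adjusted p = 0.00683) and 1.01 ± 0.18 against sip53 (adjusted p = 0.03). In siLATS the call ended without either library of siControl or siLATS (adjusted p 0.0537 to 0.143), in siLATS_p53 it ended without siLATS_p53_2 (0.0538), and against sip53 it ended without any library other than those of siLATS (0.0542 to 0.225).

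PPP1R15A encodes GADD34, the phosphatase subunit that reverses eIF2 phosphorylation. Its level was 9.45 and 9.76 in siControl, 10.04 and 10.07 in siLATS, 9.48 and 9.47 in sip53, and 10.07 and 10.25 in siLATS_p53. As for ATF3, the libraries with LATS1/2 siRNA lay above those without. The gene rose by 0.69 ± 0.13 in siLATS_p53 against sip53 (adjusted p = 0.03) and by 0.55 ± 0.13 against siControl (adjusted p = 0.0278, and 0.0504 after rescaling). In siLATS the difference was 0.45 ± 0.13 (adjusted p = 0.0731, and 0.00319 with the batch block). The call against siControl ended without any library other than siControl_2 (0.0552 to 0.127), and the call against sip53 ended without any library of siLATS, sip53 or siLATS_p53 (0.0842 to 0.204).

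TRIB3 and CEBPB fell in siLATS, where ATF3 rose. TRIB3, a pseudokinase induced by ATF4 that dampens it in turn, was at 10.81 and 10.91 in siControl, 10.18 and 10.22 in siLATS, 10.74 and 10.91 in sip53, and 10.39 and 10.47 in siLATS_p53. The lowest libraries were those of siLATS, followed by those of siLATS_p53, with no overlap with the others. TRIB3 fell by 0.66 ± 0.09 in siLATS (1.58-fold lower, adjusted p = 0.00951) and by 0.43 ± 0.09 in siLATS_p53 against siControl (adjusted p = 0.0237). Against sip53 its difference in siLATS_p53 was -0.39 (adjusted p = 0.0686, and 0.00215 with the block). The siLATS call ended without siControl_2, siLATS_1 or siLATS_2 (0.055 to 0.103), and the siLATS_p53 call ended without any library other than those of sip53 (0.0517 to 0.102).

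CEBPB, a transcription factor that pairs with ATF4 at some of its targets, was at 10.56 and 10.27 in siControl, 9.54 and 9.40 in siLATS, 10.47 and 10.26 in sip53, and 10.21 and 9.77 in siLATS_p53. The siLATS libraries were lowest, siLATS_p53 lay between, and siControl and sip53 overlapped. The fall in siLATS was 0.95 ± 0.17 (1.93-fold lower, adjusted p = 0.0234), and it ended without either library of siControl or siLATS (0.0601 to 0.155). In siLATS_p53 the difference from siControl was -0.43 ± 0.17 (adjusted p = 0.146, and 0.00216 with the block). CEBPB was the 1 gene of the 45 whose interaction passed with the block (0.57 ± 0.13, adjusted p = 0.0409), but it did not without it (adjusted p = 0.749) nor with the block after rescaling (adjusted p = 0.0908). An antisense gene shares 11.8% of the exonic bases of CEBPB, and the library kit keeps no strand. Of the 45 genes, 16 overlap a gene on the opposite strand. Among them are SHMT2 (14.1% of exonic bases) and CALR (14.2%), with antisense genes, and PDIA6 and MTHFD2 (29.7% each), with protein-coding genes.

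**Figure D2:**
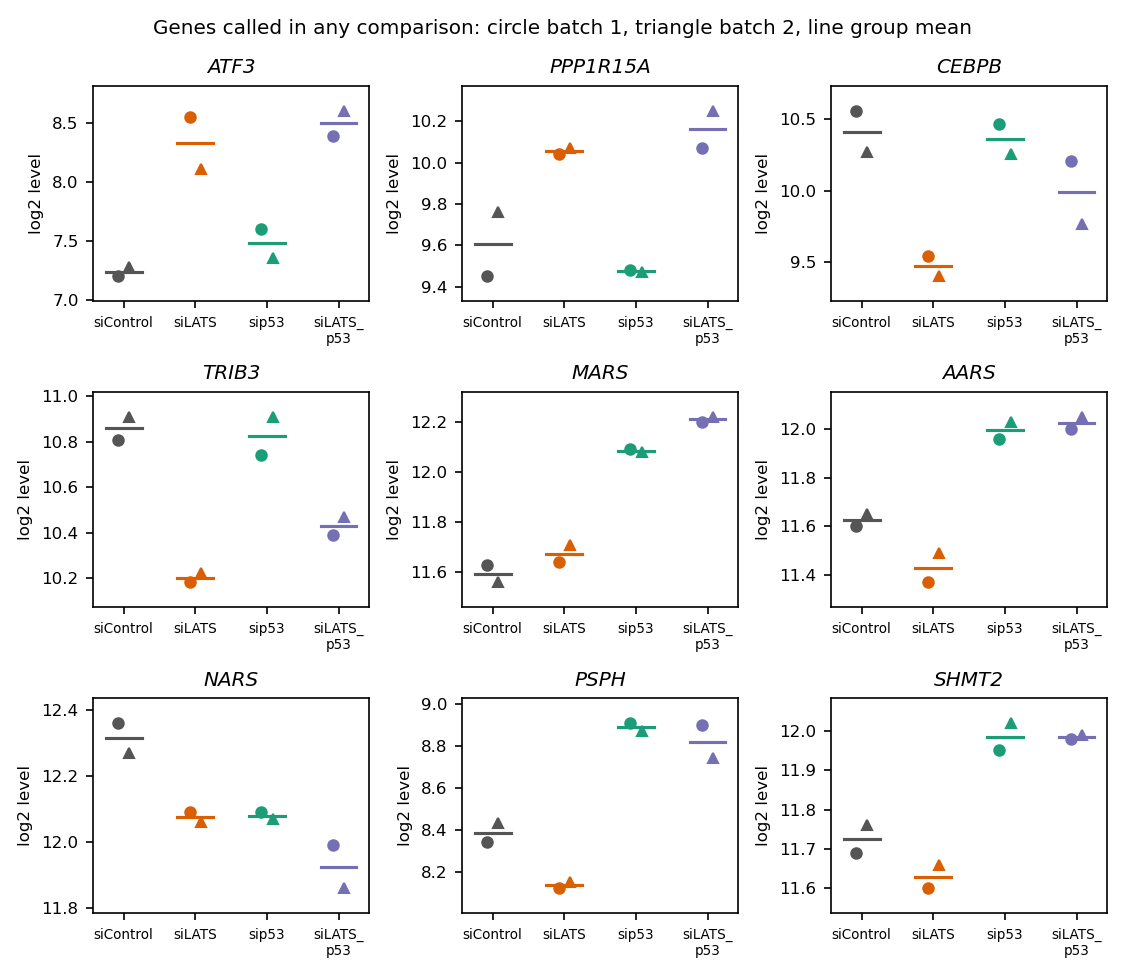
Log2 level (y axis, each panel with its own range) of the 9 genes called in at least 1 comparison, by siRNA group (x axis); circles are batch 1, triangles batch 2 and lines the mean of 2 libraries. ATF3 and PPP1R15A are high in both groups with LATS1/2 siRNA, and MARS, AARS, PSPH and SHMT2 in both groups with p53 siRNA.

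The other regulators did not pass the test in any comparison without the block. DDIT3, which encodes the pro-apoptotic factor CHOP, ranged from 6.73 to 7.52 over the libraries, and its groups overlapped. DDIT4, an inhibitor of mTORC1 signalling, was at 13.14 in both siControl libraries, 12.99 and 12.66 in siLATS, 13.60 and 13.42 in sip53, and 13.52 and 13.20 in siLATS_p53. It was lowest in siLATS. Its difference from siControl was 0.37 ± 0.15 in sip53 (adjusted p = 0.209, and 0.00464 with the block). In siLATS_p53 it was 0.22 ± 0.15 (0.359, 0.0436 with the block, and 0.153 with the block after rescaling), with 0.06 in batch 2. Against siLATS, siLATS_p53 differed by 0.54 ± 0.15 (adjusted p = 0.0507, and 0.000173 with the block). After rescaling that difference was 0.38 (adjusted p = 0.125, and 0.00229 with the block). An antisense gene shares 48.5% of the exonic bases of DDIT4. CHAC1, a glutathione-degrading enzyme, was at the floor in siControl and sip53 and reached 5.08 in siLATS_1 and 5.36 in siLATS_p53_2. VLDLR, a lipoprotein receptor, was above the floor in the 4 batch 1 libraries only (5.13 to 5.88), so no fold is given for either gene.

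The enzymes of serine, one-carbon and asparagine metabolism were mostly higher where p53 siRNA was used. In sip53, 9 of 9 lay above siControl in mean level, also after rescaling, with a median difference of 0.32 against 0.06 over all entries. None passed the test without the block, where 3.86% of all entries did; with it, ASNS, PHGDH, PSAT1, PSPH and SHMT2 did, 5 of 9, against 26% of all entries. In siLATS_p53 against siControl, 9 of 9 were again higher (median 0.25, against 0.08 over all entries). PSPH was called there (14.6% of all entries), and 5 passed with the block (39.2%), but 0 passed after rescaling and 3 with the block after rescaling. In siLATS_p53 against siLATS, 8 of 9 were higher (median 0.35, against 0.15). PSPH and SHMT2 were called there (14.5% of all entries), and 7 passed with the block (43.5%), but 1 passed after rescaling and 5 with the block after rescaling. LATS1/2 siRNA alone left 7 of 9 lower, 6 of 9 after rescaling, and none passed; ASNS was higher (0.31 ± 0.10, adjusted p = 0.103, and 0.0202 with the block).

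PHGDH catalyses the first step of serine synthesis from a glycolytic intermediate. It was at 8.07 and 7.19 in siControl, 7.99 and 7.43 in siLATS, 8.82 and 8.56 in sip53, and 8.85 and 8.46 in siLATS_p53. All 4 libraries with p53 siRNA lay above all 4 without it, and batch 1 was the higher batch in every group. The difference of sip53 from siControl was 1.07 ± 0.32 (2.09-fold, 0.76 in batch 1 and 1.38 in batch 2), with adjusted p = 0.115 without the block and 0.00018 with it. In siLATS_p53 it was 1.03 ± 0.32 against siControl (adjusted p = 0.0709, and 8.74e-05 with the block) and 0.94 ± 0.32 against siLATS (0.0881, and 0.000221 with the block).

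PSPH, the phosphatase of the last step of serine synthesis, behaved more evenly over the batches. Its level was 8.34 and 8.43 in siControl, 8.12 and 8.15 in siLATS, 8.91 and 8.87 in sip53, and 8.90 and 8.74 in siLATS_p53. Libraries with p53 siRNA were again apart from and above the others. PSPH rose by 0.68 ± 0.12 in siLATS_p53 against siLATS (adjusted p = 0.0129) and by 0.43 ± 0.12 against siControl (adjusted p = 0.0461, and 0.0661 after rescaling), whereas the difference in sip53 was 0.51 ± 0.12 (adjusted p = 0.0582, and 0.00539 with the block). The first call ended without siLATS_1, siLATS_2 or siLATS_p53_1 (0.074 to 0.0909), and the second without any 1 of the 8 libraries (0.0743 to 0.158). PSPH has a closely similar pseudogene copy, and how reads shared by them were assigned is not given in the sources used here.

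SHMT2, the mitochondrial enzyme that turns serine into glycine and a one-carbon unit, was at 11.69 and 11.76 in siControl, 11.60 and 11.66 in siLATS, 11.95 and 12.02 in sip53, and 11.98 and 11.99 in siLATS_p53. The 4 libraries with p53 siRNA were the highest. SHMT2 rose by 0.35 ± 0.07 in siLATS_p53 against siLATS (adjusted p = 0.0237), and the call ended without any library of siLATS, sip53 or siLATS_p53 (0.0526 to 0.132). PSAT1, the aminotransferase between PHGDH and PSPH in the pathway, was at 10.70 and 10.61 in siControl and at 11.03 and 11.01 in sip53, with a difference of 0.37 ± 0.09 (adjusted p = 0.0637, and 0.00368 with the block). ASNS, asparagine synthetase, was at 9.72 and 9.60 in siControl and between 9.90 and 10.04 in all 6 other libraries; another annotated transcript on its strand shares 79.7% of its exonic bases. The transsulfuration genes CTH and CBS were near the floor (up to 6.88), and CBS was at the floor in siLATS_2. MTHFD2 and ALDH1L2, of mitochondrial one-carbon metabolism, passed in no comparison without the block.

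The tRNA synthetases split by gene. In sip53, 5 of 8 were higher and 3 lower (median 0.12), MARS was called (3.86% of all entries), and AARS, EPRS and MARS rose and NARS fell with the block (26%). In siLATS_p53 against siControl, AARS and MARS rose and NARS fell, 3 of 8, against 14.6% of all entries. In siLATS, 6 of 8 were lower (median -0.18 against -0.07 over all entries) and none passed. AARS, GARS, NARS and YARS did with the block, 4 of 8, against 32% of all entries, and with the block after rescaling GARS alone did (adjusted p = 0.0315; 0.0605 to 0.203 for the other 3).

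MARS charges the methionyl-tRNA that starts every protein. It was at 11.63 and 11.56 in siControl, 11.64 and 11.71 in siLATS, 12.09 and 12.08 in sip53, and 12.20 and 12.22 in siLATS_p53. Every library with p53 siRNA lay above every library without it, and the SD within a group was 0.01 to 0.05. MARS rose by 0.49 ± 0.07 in sip53 (adjusted p = 0.025), by 0.62 ± 0.07 in siLATS_p53 against siControl (1.53-fold, adjusted p = 0.00333) and by 0.54 ± 0.07 against siLATS (adjusted p = 0.00718). The siLATS_p53 call against siControl was the 1 of the 17 that held with each of the 8 libraries left out in turn (0.58 to 0.65). The sip53 call ended without any library other than those of siLATS_p53 (0.0724 to 0.177), and the call against siLATS ended without siLATS_1, siLATS_2 or siLATS_p53_1 (0.0534 to 0.0698). MARS and DDIT3 overlap at their ends on opposite strands, sharing 2.13% of the exonic bases of MARS and 4.74% of those of DDIT3, and DDIT3 was not called.

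AARS, the alanyl-tRNA synthetase gene, was at 11.60 and 11.65 in siControl, 11.37 and 11.49 in siLATS, 11.96 and 12.03 in sip53, and 12 and 12.05 in siLATS_p53. Again the 4 libraries with p53 siRNA were the highest, and those of siLATS the lowest. AARS rose by 0.59 ± 0.08 in siLATS_p53 against siLATS (1.51-fold, adjusted p = 0.00686) and by 0.40 ± 0.08 against siControl (adjusted p = 0.0187), and its difference in sip53 was 0.37 ± 0.08 (adjusted p = 0.0536, and 0.0013 with the block). The call against siLATS ended without siLATS_1 or siLATS_p53_1 (0.0547 to 0.0689) and that against siControl without any library of siControl or siLATS_p53 (0.0521 to 0.0839).

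NARS, the asparaginyl-tRNA synthetase gene, went the other way. Its level was 12.36 and 12.27 in siControl, 12.09 and 12.06 in siLATS, 12.09 and 12.07 in sip53, and 11.99 and 11.86 in siLATS_p53. The siControl libraries were the highest and those of siLATS_p53 the lowest, while siLATS and sip53 overlapped. NARS fell by 0.39 ± 0.08 in siLATS_p53 against siControl (1.31-fold lower, adjusted p = 0.0208), and the call ended without siControl_1 or siLATS_p53_2 (0.0826 to 0.0961). GARS, the glycyl-tRNA synthetase gene, differed by -0.32 ± 0.12 in that comparison (adjusted p = 0.109, and 0.00364 with the block). WARS, YARS, SARS and EPRS passed in no comparison without the block.

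**Figure D3:**
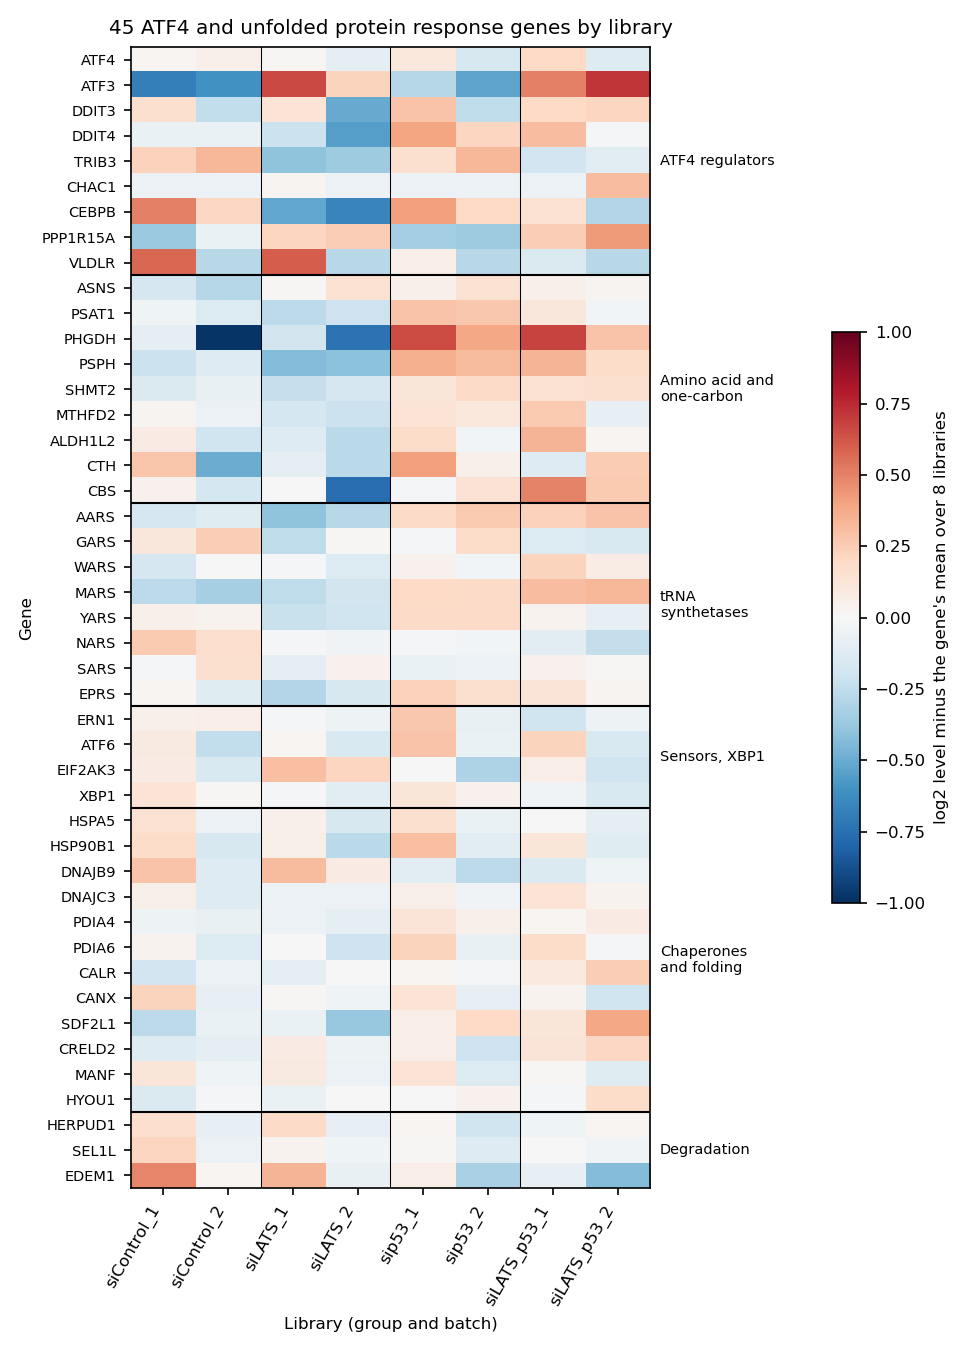
Log2 level of each of the 45 genes (rows, grouped by role) in each of the 8 libraries (columns), minus the gene's mean over the 8; red is higher and blue lower. In siControl_2 PHGDH is at 7.19, its lowest level, and the rows of ATF3 and PPP1R15A are red in all 4 libraries with LATS1/2 siRNA.

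The sensors of the ER arm did not pass the test in any comparison without the block. XBP1, the transcription factor whose messenger RNA IRE1 splices, ranged from 11.91 to 12.20 over all libraries. Spliced and unspliced forms are not separated in these gene-level values. ERN1, which encodes IRE1, ranged from 8.30 to 8.77 and ATF6 from 11.85 to 12.38. EIF2AK3, which encodes PERK, was at 10.16 and 9.92 in siControl, 10.38 and 10.29 in siLATS, 10.07 and 9.77 in sip53, and 10.14 and 9.88 in siLATS_p53. The siLATS libraries were the highest, with a difference of 0.30 ± 0.15 from siControl (adjusted p = 0.257, and 0.0172 with the block). An antisense gene shares 16.2% of the exonic bases of EIF2AK3.

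The chaperones, the usual readout of ER stress, were close to level over the groups. HSPA5, which encodes the chief ER chaperone BiP, was at 15.73 and 15.52 in siControl, 15.63 and 15.42 in siLATS, 15.74 and 15.51 in sip53, and 15.58 and 15.48 in siLATS_p53. The groups overlapped and batch 1 was higher in each. Its difference from siControl was -0.10 in siLATS (95% interval -0.43 to 0.24), 0.00 in sip53 (-0.33 to 0.34) and -0.09 in siLATS_p53 (-0.43 to 0.24). With the block these intervals narrowed, to -0.26 to 0.06, -0.16 to 0.16 and -0.25 to 0.06. HSP90B1, the ER form of HSP90, ranged from 15.51 to 16.08.

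Over the 12 chaperones and folding factors, siLATS had a median difference of -0.02 from siControl, sip53 of 0.07 and siLATS_p53 of 0.12, where the medians of all entries were -0.07, 0.06 and 0.08. CALR, a calcium-binding lectin chaperone, was at 14.43 and 14.56 in siControl and at 14.72 and 14.87 in siLATS_p53, a difference of 0.30 ± 0.10 (adjusted p = 0.094, and 0.00415 with the block). SDF2L1, a cofactor of BiP, differed by 0.42 ± 0.15 in that comparison (adjusted p = 0.0995, and 0.0118 with the block), and CRELD2 by 0.29 ± 0.11 (0.134, and 0.0253 with the block). Of these, only CALR and CRELD2 hold the ER stress element shown above. MANF, HYOU1, CANX, DNAJC3 and PDIA4 passed in no comparison against siControl, with or without the block.

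Among the genes of ER-associated degradation, EDEM1, which directs misfolded glycoproteins to disposal, was at 12.64 and 12.17 in siControl, 12.49 and 12.08 in siLATS, 12.22 and 11.83 in sip53, and 12.07 and 11.72 in siLATS_p53. Within each batch the libraries with p53 siRNA were the lowest, while across batches siLATS_p53 lay below siControl and siLATS, and sip53 overlapped with the 3 other groups. The difference of siLATS_p53 from siControl was -0.51 ± 0.22 (adjusted p = 0.172), and with the block adjusted p = 3.7e-05. In sip53 it was -0.38 (0.374, and 0.000977 with the block). HERPUD1 and SEL1L, of the same degradation pathway, passed in no comparison.

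The ER arm as a whole had 0 of 19 genes called in every comparison without the block. With the block, EIF2AK3 alone was called in siLATS, where it rose (32% of all entries called). EDEM1 alone was called in sip53, where it fell (26%). In siLATS_p53 against siControl, 3 genes rose and 1 fell (39.2% of all entries called), and 2 and 3 with the block after rescaling. In siLATS_p53 against siLATS, 3 rose (CALR, PDIA6 and SDF2L1) and 3 fell (DNAJB9, EDEM1 and EIF2AK3) with the block, against 43.5% of all entries called. The median of all entries was 0.15 there, and with the block after rescaling 0 rose and 5 fell. In siLATS against siControl, 12 of 19 lay lower without rescaling and 6 of 19 after it, so no direction is given for the arm.

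The effect of p53 siRNA can be read in pairs of comparisons that share no library, sip53 against siControl and siLATS_p53 against siLATS. Of the 45 genes, 36 (80%) had the same sign in both, against 75.3% of all tested entries, each symbol taken once (12287). Across the genes the correlation was 0.80 (Pearson) and 0.76 (Spearman), against 0.71 and 0.66 over all entries; genes of a library share its depth and batch and are not independent. For LATS1/2 siRNA, without and with p53 siRNA, 31 of 45 (68.9%) had the same sign, against 67.9%, with correlations of 0.78 and 0.58. The shares for the 45 genes were close to those of all entries.

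**Figure D4:**
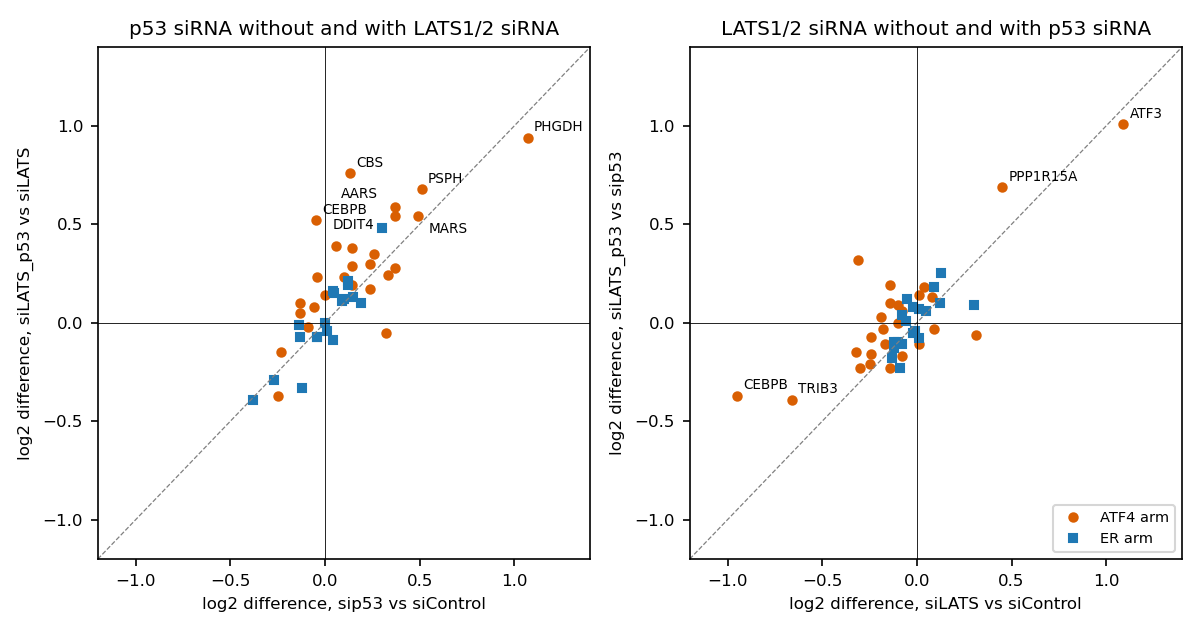
Log2 difference of each of the 45 genes after p53 siRNA (left) and after LATS1/2 siRNA (right), without (x axis) and with (y axis) the other siRNA, the axes of a panel sharing no library; orange circles are the ATF4 arm, blue squares the ER arm and the dashed line equality. PHGDH lies at 1.07 and 0.94 on the left and ATF3 at 1.09 and 1.01 on the right.

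More genes of the ER arm were called between the batches of cells than in any comparison of treatments, though these comparisons are not equal in power. In the fit with the block, 15 of 45 genes were called between batch 1 and batch 2, against 30.3% of all entries, and all 15 were higher in batch 1 (17.8% of all entries). These were 8 of 19 in the ER arm and 7 of 26 in the ATF4 arm. A comparison of treatments with the block called 6 of the ER arm at most, in siLATS_p53 against siLATS (43.5% of all entries). The batch comparison sets 4 libraries against 4 and a treatment comparison 2 against 2, so the SE is smaller between batches. For PHGDH it was 0.10 between batches and 0.15 between treatments, so the counts do not rank the sizes of the effects. EDEM1 was 0.41 higher in batch 1, HSP90B1 0.33 and ATF6 0.31, each in 4 of 4 groups. The median difference was 0.17 in the ER arm and 0.05 in the ATF4 arm, against 0.03 over all entries. In the ATF4 arm, PHGDH was 0.52 and CEBPB 0.27 higher in batch 1, while MARS differed by 0.00.

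Marker genes moved with the batches as well. The fibroblast-associated gene DCN was at 9.86 and 7.02 in siControl, 7.87 and at the floor in siLATS, 9.53 and 6.14 in sip53, and 8.39 and at the floor in siLATS_p53. It was higher in batch 1 in every group, whereas COL1A2, COL3A1, PDGFRA, PDGFRB and LUM were at the floor in all 8 libraries. COL1A1, the only other fibroblast marker above the floor, was not called between batches in the fit with the block (0.15, adjusted p = 0.372). In siControl it was lower in batch 1 (-0.29). The summed linear level of the fibroblast list lay between 325.1 and 1089 in siControl, 174.9 and 449.2 in siLATS, 167.5 and 870.9 in sip53, and 181 and 537.7 in siLATS_p53, the batch 1 library being the higher in each. Of the basal epithelial markers, 7 of 8 were called lower in batch 1, where 30.3% of all entries were called in either direction. The part of these markers in the batch differences of the 45 genes was not tested.

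Some markers moved with the siRNAs too. Of the 8 basal epithelial markers, LAMB3 fell by 0.93 ± 0.18 in sip53 (adjusted p = 0.0402). LAMB3, ITGB4 and TP63 fell by 0.82, 0.80 and 0.92 in siLATS_p53 against siControl (adjusted p from 0.0146 to 0.0353), and CDH3 was 0.54 higher in siLATS_p53 than in sip53 (adjusted p = 0.0249). With the block, 7 of the 8 were called in siLATS (1 higher), against 32% of all entries. With it, 6 were called in sip53 (1 higher, against 26%) and 5 in siLATS_p53 (1 higher, against 39.2%). DCN, described above, was then lower than siControl in all 3 treatments (-2.01, -0.60 and -1.75). COL1A1 was also lower with the block in sip53 (-0.64) but was not called in siLATS (0.14) or siLATS_p53 (0.11). The monocyte marker CD14 was higher with the block in sip53 (0.80) and siLATS_p53 (0.57). CD68, the only other blood or endothelial marker above the floor, was lower in siLATS_p53 (-0.30) and not called in sip53 (0.03). The part of these markers in the siRNA results of the 45 genes was not tested.

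**Figure D5:**
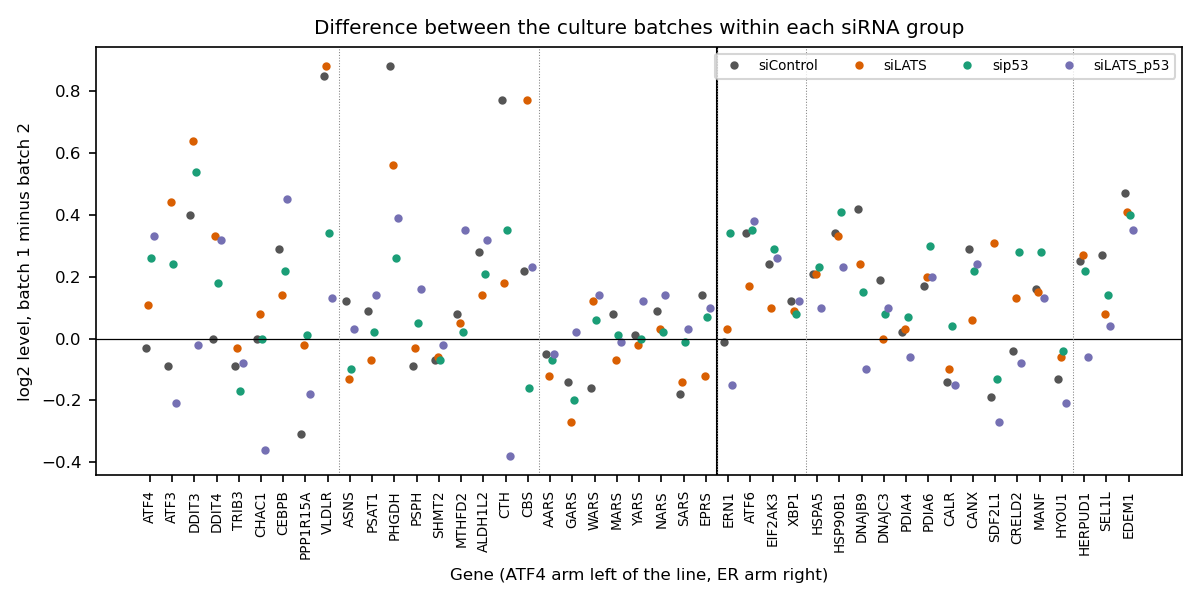
Log2 level in batch 1 minus batch 2 (y axis) of each of the 45 genes (x axis, ATF4 arm left and ER arm right of the line) within each of the 4 siRNA groups (colours), 1 library per batch and group. EDEM1, HSP90B1 and ATF6 lie above 0 in all 4 groups, while MARS lies near 0.

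Other genes of these pathways were counted in lists chosen by function. Among 23 further ATF4-linked genes, siLATS had 1 rise and 1 fall against siControl (2.81% and 4.89% of all entries). In sip53 there were 0 rises and 2 falls (1.76% and 2.1%), and in siLATS_p53 2 rises and 4 falls (9.07% and 5.48%). With the block, 4 rose and 5 fell in siLATS, 3 and 5 in sip53, and 9 and 6 in siLATS_p53, where 32%, 26% and 39.2% of all entries were called. With the block after rescaling, 7 rose and 3 fell in siLATS, 2 and 5 in sip53, and 6 and 7 in siLATS_p53. Of all 12315 entries, 3449, 3021 and 4685 were called there. The neutral amino acid carrier gene SLC1A4 was at 7.33 and 7.17 in siControl and at 8.22 and 8.16 in siLATS_p53, a rise of 0.94 ± 0.14 (adjusted p = 0.00777). SESN2, a stress-induced gene that p53 also induces, was at 9.32 and 9.41 in siControl and at 8.55 and 8.57 in sip53. It fell by 0.81 ± 0.11 (adjusted p = 0.0162), and NUPR1, a stress-induced chromatin protein gene, fell by 0.66 ± 0.14 (adjusted p = 0.0451). In siLATS, STC2, a secreted glycoprotein gene, rose by 0.49, and XPOT, the tRNA exporter gene, fell by 0.46. XPOT and ALDH18A1, of proline synthesis, fell by 0.31 and 0.37 in siLATS_p53 against siControl, and NFIL3, a transcription factor gene, rose by 0.67 against siLATS (adjusted p = 0.0429, and 0.0876 after rescaling).

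Of 12 other cytosolic tRNA synthetase genes, 0 rose and 2 fell in siLATS without the block (IARS by 0.39 and VARS by 0.41; 4.89% of all entries fell), and 0 were called in sip53 (3.86%) or in siLATS_p53 against siControl (14.6%). With it, 6 fell in siLATS (32% of all entries called), FARSA, IARS and KARS rose in sip53 (26%), and VARS fell in siLATS_p53 against siControl (39.2%). With the block after rescaling, 6 fell in siLATS, 1 rose in sip53 and 3 fell in siLATS_p53 (3449, 3021 and 4685 of 12315 entries called). In siLATS_p53 against siLATS 2 rose, KARS by 0.54 and DARS by 0.42 (11.3% of all entries rose), and neither passed after rescaling. In that comparison 8 rose with the block (43.5% of all entries called), and 3 with the block after rescaling. Of the mitochondrial ones, HARS2 and PARS2 rose by 0.45 and 0.87 in siLATS_p53 against siLATS. Among 11 genes of eIF2 control, EIF2S1, the subunit that is phosphorylated, rose by 0.36 in siLATS_p53 against siControl and by 0.51 against siLATS, and EIF2B3 rose by 0.46 against siLATS. With the block, 4 of the 11 fell in siLATS (32% of all entries called) and 4 rose in sip53 (26%). In siLATS_p53, 2 rose and 1 fell against siControl (39.2%), and 5 rose against siLATS (43.5%). With the block after rescaling, 1 of the 11 rose and 2 fell in siLATS, and 1 rose in sip53 (3449 and 3021 of 12315 entries called). In siLATS_p53, 2 rose and 1 fell against siControl, and 2 and 1 against siLATS (4685 and 4194 entries). After rescaling, IARS, VARS, KARS, DARS, HARS2, EIF2S1 against siControl and EIF2B3 were not called (adjusted p from 0.0534 to 0.12).

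On the ER side, 28 of 29 other folding and secretory genes were tested. Without the block, 0 were called in siLATS (7.7% of all entries) or sip53 (3.86%), and SSR3, of the translocon-associated complex, fell by 0.35 in siLATS_p53 against siControl (5.48% of all entries fell). With it, 3 rose and 6 fell in siLATS (32% of all entries called), 3 rose and 2 fell in sip53 (26%), and 5 rose and 7 fell in siLATS_p53 against siControl (39.2%). With the block after rescaling, 7 rose and 6 fell in siLATS, 3 and 3 in sip53, and 3 and 8 in siLATS_p53 (3449, 3021 and 4685 of 12315 entries called). Of the ER translocon genes, SEC61A1 fell by 0.42 and SEC61B rose by 0.41 in siLATS_p53 against siLATS (SEC61B with adjusted p = 0.152 after rescaling). Of 14 tested genes of ER-associated degradation, ERLEC1, an ER lectin gene, fell by 0.85 ± 0.21 in siLATS_p53 against siControl (adjusted p = 0.0347) and by 0.82 ± 0.21 against siLATS. In the latter comparison UBE2G2 fell by 0.49, and FAF2 fell by 0.57 in siLATS against siControl (adjusted p = 0.0689 after rescaling). With the block, 2 of the 14 rose and 3 fell in siLATS (32% of all entries called), and 3 rose and 1 fell in sip53 (26%). In siLATS_p53 against siControl 2 rose and 3 fell (39.2%). With the block after rescaling, 4 of the 14 rose and 1 fell in siLATS, 1 and 2 in sip53, and 2 and 3 in siLATS_p53 (3449, 3021 and 4685 of 12315 entries called).

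Without the block, 0 of 5 tested genes linked to the sensors and 0 of 13 cytosolic heat shock genes were called in any comparison. With it, MBTPS2, a protease gene of ATF6 processing, rose in sip53, and MBTPS1, of the same processing, fell in siLATS_p53 against siControl. Of the heat shock genes, DNAJB4 rose and BAG3, HSP90AA1, HSPA4, HSPD1 and HSPH1 fell in siLATS with the block, 6 of 13 against 32% of all entries. In sip53 3 rose and 0 fell (26% of all entries called), in siLATS_p53 against siControl 3 rose and 1 fell (39.2%), and against siLATS 5 rose and 1 fell (43.5%). With the block after rescaling, 1 heat shock gene rose and 2 fell in siLATS, and 2 rose and 0 fell in sip53 (3449 and 3021 of 12315 entries called). In siLATS_p53, 1 rose and 4 fell against siControl, and 1 rose and 1 fell against siLATS (4685 and 4194 entries).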

How the data were processed

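The authors deposited log2 expression levels, 1 per gene symbol and library, in which values under 5 (32 on the linear scale) were raised to 5. TopHat and hg19 are named in the submitters' processing notes. The counter, annotation and scaling used are not named there. The log base and the depth were read from the even step between low linear values. Whole reads could not be recovered, so no count test was run. Levels are not per length, so different genes were not compared in level.

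A single limma fit (limma 3.58.1, R 4.3.3, trend on mean level, no pseudocount) took all 8 libraries and left 4 residual degrees of freedom. Of 29991 entries, 12315 exceeded the floor in 2 or more libraries and were tested, with a Benjamini-Hochberg threshold of 0.05. The labels give each replicate number to 1 batch of cells. Deviations of same-numbered libraries from their group means correlated between 0.565 and 0.726, so a second fit, blocked on batch (3 residual degrees of freedom), is printed beside counts or calls that it changes. All 45 genes were described, and other lists name up to 4 called genes per comparison, those of smallest p. The genes and lists were chosen with earlier results of these data known. Promoters came from RefSeq and exon overlaps from GENCODE v29. The procedure was tested on simulated data. The level of the p53 transcript is not reported here.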

Additional observations from a re-analysis of the deposited data

How the results depend on the processing

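The number of the 45 genes called was 3, 1, 7, 4, 2 and 0 in siLATS, sip53 and siLATS_p53 against siControl, siLATS_p53 against siLATS and against sip53, and the interaction. With the replicate block it was 11, 11, 19, 21, 6 and 1, and with the block and rescaling (chosen after seeing the data) 8, 12, 16, 15, 8 and 0. Of all 12315 entries, 948, 475, 1792, 1791, 451 and 0 were called in the main fit. With the block these were 3937, 3199, 4832, 5361, 2720 and 250, and with the block and rescaling 3449, 3021, 4685, 4194, 2789 and 81. Without a filter on low values the number of the 45 genes called was 0, 0, 1, 2, 0 and 0. Calls over all 29991 entries then tested were few as well (44, 20, 256, 187, 27 and 5). In fits of only the groups compared, with fewer libraries, 0, 0, 2, 0 and 0 of the 45 genes were called, and 0, 0, 374, 0 and 0 of all 12315 entries. With entries above the floor in all 8 libraries sip53 had 2 (533 of 11356 entries). Without the 2 libraries of fewest estimated reads, also chosen after seeing the data, calls ended for the 45 genes and over all entries alike, with fewer samples. Leaving out 1 library in turn also lowered the number in most comparisons, for the 45 genes and over all entries. The lone library of a group is then assumed to vary like the others. Of the 17 called differences, 14 kept their call after rescaling, and 17 with a pseudocount of 1, without the mean-variance trend, and with the block. The block ended 0 of the 17 calls. The floor stood for 14.51 to 49.97 estimated reads, so changes of genes near it are understated.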
